A study of Rattus norvegicus with 6 samples.

Results

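The miR-181 family was described in small RNA libraries of rat brain as 7 of the 775 mature miRNAs in the deposited count table. The members were taken by name and not by their values. They are the 5p strands rno-miR-181a-5p, rno-miR-181b-5p, rno-miR-181c-5p and rno-miR-181d-5p, and the 3p strands rno-miR-181a-1-3p, rno-miR-181a-2-3p and rno-miR-181c-3p, written without the rat prefix from here on. The table also lists 3 further 3p strands of the same hairpins (miR-181b-1-3p, miR-181b-2-3p and miR-181d-3p), which are given beside the members where they help. The 6 libraries came from 2 groups of 3. Both groups were male Sprague-Dawley rats, 7 weeks old when bought, whose common carotid arteries had both been ligated (2-vessel occlusion, 2VO), a model of vascular dementia with long-lasting low blood flow to the brain. The 2VO group received the vehicle, 0.5% CMC-Na at 5 mL/kg, for 4 weeks, and the 2VO+tilianin group received 40 mg/kg of the flavonoid glycoside tilianin daily in that vehicle over the same time. The labels give the tissue as brain, and one figure legend of the study gives it as cortical tissue. The sources do not say whether each library came from 1 rat, so that p-values measure the spread between these libraries.

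A miRNA gene is transcribed as a hairpin, which Drosha and Dicer cut to a short duplex with a 5p and a 3p strand. One strand, the guide, is loaded into an Argonaute protein and lowers the output of mRNAs that pair with its seed near the 5′ end, while the other strand is mostly degraded. The miR-181 guides are 5p strands, are abundant in brain and in developing lymphocytes, and have been studied in cerebral ischaemia, where their described targets include the endoplasmic reticulum chaperone BiP and anti-apoptotic proteins.

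The mature sequences are shown because they fix which members share targets and which members are nearly the same molecule. They are RefSeq's for the rat assembly GRCr8, and all 7 members were found there. The seed, bases 2 to 8 from the 5′ end, is in capitals.
rno-miR-181a-5p: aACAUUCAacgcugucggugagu
rno-miR-181b-5p: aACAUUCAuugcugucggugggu
rno-miR-181c-5p: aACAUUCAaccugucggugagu
rno-miR-181d-5p: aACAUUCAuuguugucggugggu
rno-miR-181a-1-3p: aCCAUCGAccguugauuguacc
rno-miR-181c-3p: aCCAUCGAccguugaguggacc
rno-miR-181a-2-3p: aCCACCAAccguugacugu
The 4 guides share 1 seed, and none of the other listed miRNAs with a RefSeq sequence had it (689 were compared). Downstream of the seed they differ little. With positions counted from 1 at the 5′ end and the base of the first-named strand first, miR-181a-5p and miR-181b-5p differ at A9U, C10U and A21G. miR-181b-5p and miR-181d-5p differ at 1 position, C12U. miR-181a-5p and miR-181c-5p are the same apart from a gap of 1 base, which makes miR-181c-5p 22 bases long against 23. Of the 3p strands, miR-181a-1-3p and miR-181c-3p share a seed and differ at U16G and U19G, whereas miR-181a-2-3p has a seed of its own.

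In GRCr8 the family lies as 3 pairs of hairpins, all on the plus strand. Mir181a-1 (chr13:52037067-52037166) and Mir181b1 (chr13:52037228-52037337) are 61 bases apart inside the long non-coding RNA gene LOC108352541. Mir181a2 (chr3:43025563-43025679) and Mir181b2 (chr3:43026666-43026753) are 986 bases apart inside Nr6a1, which encodes an orphan nuclear receptor, and also inside the long non-coding RNA gene LOC120101539. Mir181c (chr19:40888291-40888396) and Mir181d (chr19:40888474-40888556) are 77 bases apart, lie inside no other annotated gene, and end 974 bases before Nanos3. These coordinates are those of RefSeq, since the build behind the counts is not given in the sources used here. The miR-181a-5p strand is cut from both Mir181a-1 and Mir181a2, so its count sums over 2 hairpins, and the 3p strands differ between these hairpins. The Mir181a2 and Mir181c hairpins are shown with their 5p and 3p strands in capitals.
Mir181a2: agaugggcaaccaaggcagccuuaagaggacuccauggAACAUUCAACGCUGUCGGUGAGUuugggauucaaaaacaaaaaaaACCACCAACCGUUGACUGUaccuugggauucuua
Mir181c: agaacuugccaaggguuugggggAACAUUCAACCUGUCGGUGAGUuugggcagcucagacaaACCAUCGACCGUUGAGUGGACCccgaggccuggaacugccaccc

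Total counts per library were 7428890 to 13198776 in the 2VO group and 7175872 to 9464216 in the 2VO+tilianin group. Levels are given as CPM, counts scaled to library size, with the sizes adjusted by edgeR's TMM method. A read spans a whole strand, so strands were compared without scaling by length. Of all miRNAs, the 454 that reached 10 counts over the 6 libraries entered edgeR's quasi-likelihood test, and the study's screening criterion was kept, an unadjusted p-value under 0.05 with an absolute log2 fold change above 1. One library, tilianin-treated replicate 2, was unlike the rest. Its Spearman correlation to them over the tested miRNAs was 0.936 to 0.957, while the others correlated at 0.983 to 0.992 with each other. Values without this library are given beside the results that moved most.

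The family was represented by miR-181a-5p and, at a lower level, miR-181b-5p, while miR-181c and miR-181d were listed at or near 0. Of the 7 members, 4 had enough counts to be tested, 2 had 0 counts in every library, and 1 had 2 counts in all. Neither a guide nor a 3p strand of the family passed the screening criterion with tilianin. The largest fitted change among the tested members was 0.24 on the log2 scale, in miR-181b-5p. The balance between 5p and 3p strands was higher in every treated library than in every 2VO library for both miR-181a and miR-181b, as it was for 5.52% of all hairpins compared, and the difference did not pass a test over all hairpins.

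miR-181a-5p, the main guide of the family, was counted at 11011, 12918 and 10129 CPM in the 2VO libraries and at 12001, 12886 and 11847 CPM in the treated libraries, each in the order of replicates 1 to 3, which is kept for all values given per library. The highest value was in 2VO replicate 2 and the treated libraries lay within the range of the 2VO libraries. The group means were 11353 ± 1426 CPM for 2VO and 12245 ± 561 CPM for tilianin (SD, n = 3 each), resting on 78289 to 167379 counts in a library. miR-181a-5p ranked 18th of all miRNAs by mean CPM and took 1.05 to 1.27% of the counts in a library. The log2 fold change, tilianin-treated over 2VO, was 0.11 (standard error 0.167), with an adjusted p of 0.871 from edgeR's quasi-likelihood test. As a fold this is 1.08, with a 95% interval of 0.820 to 1.42, so that a change as large as the criterion's lay outside the interval in both directions.

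miR-181b-5p, which carries the same seed and ends in a slightly different 3′ part, stood at 1468, 2036 and 1182 CPM in the 2VO libraries and at 1739, 2338 and 1452 CPM in the treated libraries. In each group replicate 2 was highest and replicate 3 lowest, and the groups overlapped. The group means were 1562 ± 435 CPM for 2VO and 1843 ± 452 CPM for tilianin (SD, n = 3 each), resting on 9136 to 26383 counts in a library. Its change on the log2 scale was 0.24 (standard error 0.283), with an adjusted p of 0.861 from edgeR's quasi-likelihood test. The fold of 1.18 had a 95% interval of 0.743 to 1.87. miR-181b-5p ranked 49th by mean CPM. It varied more between libraries of a group than miR-181a-5p did, with a coefficient of variation of 27.8% in the 2VO group and 24.5% in the treated group, against 12.6% and 4.58% for miR-181a-5p. Over the 269 tested miRNAs with a mean of at least 10 CPM, the median coefficient of variation was 11.6% and 25.6%.

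miR-181a-1-3p, the partner strand cut from the Mir181a-1 hairpin, was the most abundant 3p strand, at rank 103. Its level was 329, 390 and 325 CPM in the 2VO libraries, against 287, 315 and 344 CPM with tilianin. The treated libraries reached below the lowest 2VO library but overlapped with that group. Its change on the log2 scale was -0.14 (standard error 0.187), with an adjusted p of 0.861 from edgeR's quasi-likelihood test and a fold interval of 0.667 to 1.23. In GRCr8 the gene Mir3570 lies on the minus strand over the same bases, and its mature strand covers exactly the positions of miR-181a-1-3p. miR-3570 had 2 to 13 counts per library against 2043 to 5050 for miR-181a-1-3p. Whether the counting used strand is not given in the sources used here. The counts of these antisense partners were far apart in every library, so the counting did not give both names the same reads. Whether a few reads of one were counted for the other was not tested.

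miR-181a-2-3p, the partner strand of the Mir181a2 hairpin, was far less abundant, at rank 297 and with 37 to 67 counts per library. Its level was 5.12, 5.17 and 6.08 CPM in the 2VO libraries, against 6.41, 8.16 and 4.52 CPM with tilianin. The treated group held both the lowest and the highest library. Its change on the log2 scale was 0.22 (standard error 0.291), with an adjusted p of 0.861 from edgeR's quasi-likelihood test and a fold interval of 0.724 to 1.87.

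Of the other strands of the family's hairpins, miR-181b-1-3p had 7.85, 11.2 and 7.37 CPM in the 2VO replicates and 7.82, 8.16 and 7.57 CPM in the treated replicates. Its log2 fold change was -0.17, with a standard error of 0.250. miR-181b-2-3p had 0 to 8 counts per library and miR-181d-3p had 0 in all of them. In order of level, miR-181a-5p, miR-181b-5p and miR-181a-1-3p were separated from each other in every library. Next came miR-181b-1-3p and miR-181a-2-3p, whose values did not overlap within the 2VO group (7.37 to 11.2 against 5.12 to 6.08 CPM) and did overlap within the treated group (7.57 to 8.16 against 4.52 to 8.16 CPM).

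**Figure D1:**
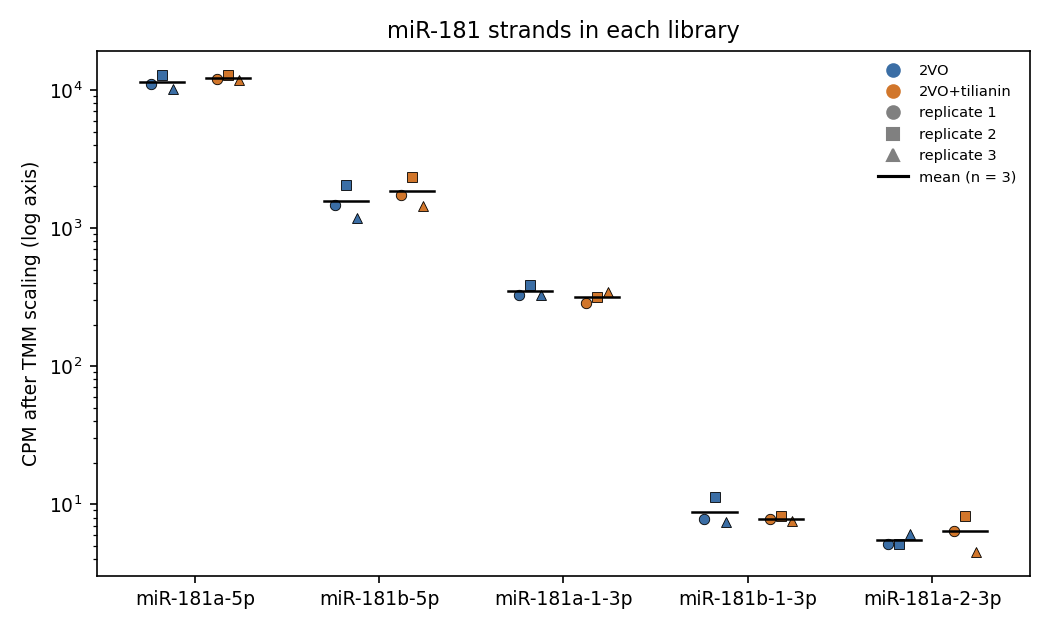
Level of the tested miR-181 strands other than miR-181b-2-3p, in CPM after TMM scaling on a log axis, by strand and group. Each point is a library, with its shape giving the replicate, and each bar is the mean of 3 libraries. The 2VO and 2VO+tilianin libraries overlap for every strand, from miR-181a-5p at 10129 to 12918 CPM down to miR-181a-2-3p at 4.52 to 8.16 CPM.

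Of all 454 tested miRNAs, 5.73% passed the screening criterion, 4.63% upregulated and 1.10% downregulated in the treated group, and 0 passed an adjusted p of 0.05 by edgeR's quasi-likelihood test, with 33 (7.27%) under an unadjusted 0.05. Without tilianin-treated replicate 2, the upregulated ones went from 21 to 9 of the 445 then tested (2.02%) and the downregulated ones from 5 to 4 (0.899%), and 4 had an adjusted p under 0.05 in the same test, no member among them. Without 2VO replicate 2 the upregulated ones were 7. Of the 4 tested members, 0 passed the criterion, 0 had an unadjusted p under 0.05 and 0 had groups that did not overlap. Of all tested miRNAs, 9.69% had such groups, 5.51% with the treated libraries higher and 4.19% with them lower. DESeq2's Wald test, which gave 3 miRNAs an adjusted p under 0.05, passed none of the members. The median log2 fold change was 0.16 over the tested members and -0.03 over all tested miRNAs, and 3 of the 4 members were above 0 against 46.7% of all. The absolute change of each member was below the median over all tested miRNAs, 0.29 on the log2 scale. Of these miRNAs, 269 had a mean of at least 10 CPM, and the comparison was not matched for level. The share of tested miRNAs with a smaller absolute change was 22.0% for miR-181a-5p, 43.8% for miR-181b-5p, 27.8% for miR-181a-1-3p and 40.5% for miR-181a-2-3p.

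**Figure D2:**
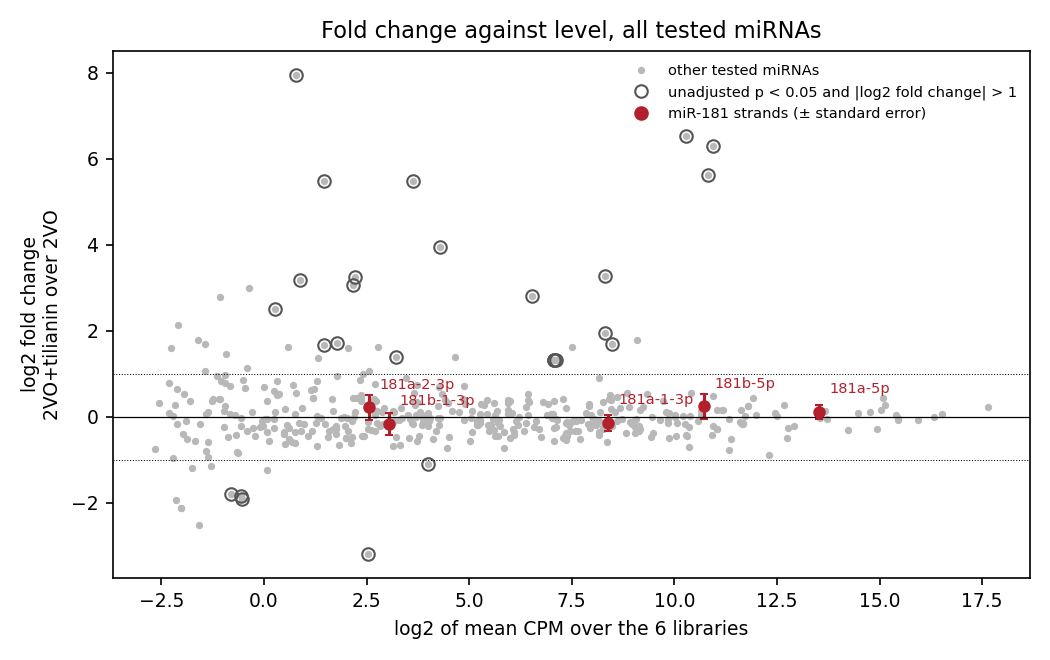
Log2 fold change (2VO+tilianin over 2VO) against log2 of the mean CPM over the 6 libraries, 1 point for each of the 454 tested miRNAs. Red points are miR-181 strands with their standard errors, open circles are miRNAs past the screening criterion, and dotted lines mark a log2 fold change of 1 in either direction. The 5 red points lie between -0.17 and 0.24, inside the dotted lines.

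Fits with each library left out moved the members without changing a call. The log2 fold change of miR-181b-5p was 0.04 without tilianin-treated replicate 2, 0.07 without 2VO replicate 3 and 0.51 without 2VO replicate 2. miR-181a-5p lay between 0.03 (without 2VO replicate 3) and 0.25 (without 2VO replicate 2). miR-181a-1-3p lay between -0.21 (without treated replicate 3) and -0.02 (without 2VO replicate 2). miR-181a-2-3p lay between 0.03 (without treated replicate 2) and 0.41 (without treated replicate 3). The direction of each member was the same in all of these fits, and their unadjusted p-values in edgeR's quasi-likelihood test went down to 0.161.

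**Figure D3:**
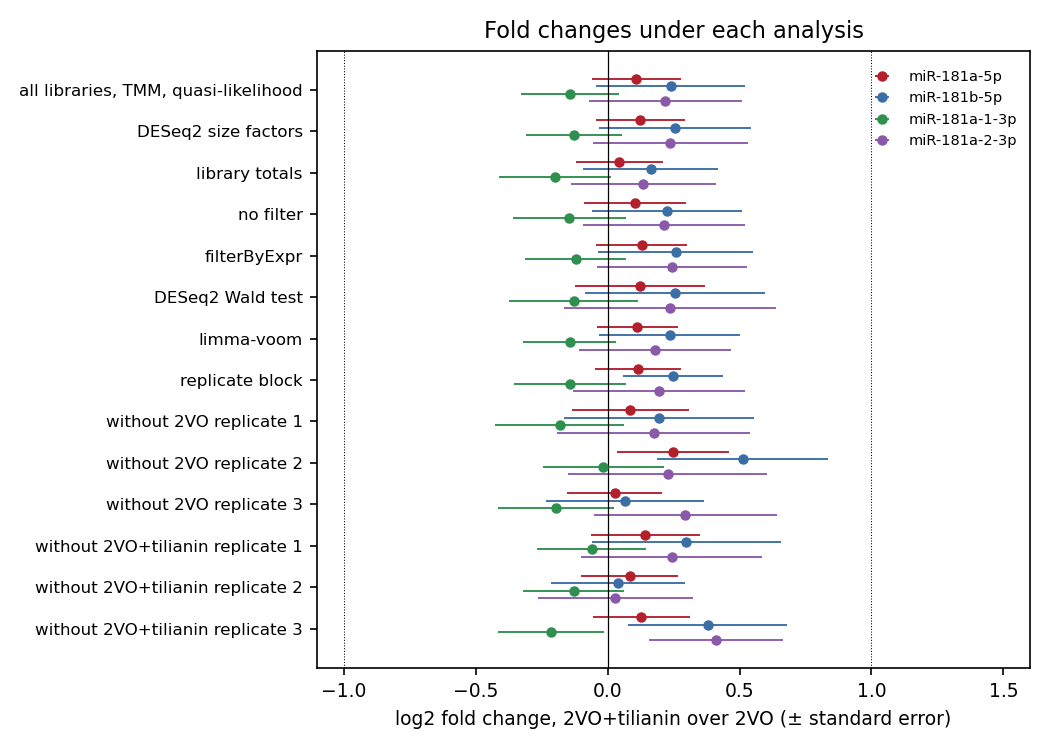
Log2 fold change (2VO+tilianin over 2VO) with its standard error for the 4 tested members, 1 line of points for each analysis, from all libraries at the top to each library left out below. Dotted lines mark a log2 fold change of 1 in either direction. No point leaves its side of 0, and the widest spread is that of miR-181b-5p, from 0.04 to 0.51.

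Since the guides share a seed, their counts were also summed. Together the 4 guides came to 12478, 14954 and 11311 CPM in the 2VO libraries and to 13740, 15224 and 13299 CPM in the treated libraries, or 12914 ± 1861 and 14088 ± 1009 CPM (SD, n = 3 each). The groups overlapped, and the mean of log2(CPM + 1) was 0.13 higher in the treated group, or 0.08 without tilianin-treated replicate 2. The 3 member 3p strands came to 353 ± 36.0 CPM for 2VO and 322 ± 27.2 CPM for tilianin (SD, n = 3 each), which is 0.13 lower in the treated group on the same scale. Within the summed guides, miR-181b-5p made up 11.8, 13.6 and 10.5% in the 2VO replicates and 12.7, 15.4 and 10.9% in the treated replicates, and miR-181a-5p nearly all of the rest. The share of miR-181b-5p was 11.9 ± 1.59% and 12.98 ± 2.24% (SD, n = 3 each), with p = 0.6 in a two-sided exact permutation test. Its difference of 1.03 percentage points turned to -0.16 without tilianin-treated replicate 2. With 3 libraries against 3 the smallest p of this test is 0.1.

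The 5p strand is common to both miR-181a hairpins, so only the 3p strands tell these hairpins apart in the counts. How far the level of a 3p strand follows the output of its hairpin was not tested. miR-181a-1-3p made up 98.4 ± 0.265% of the counts of the miR-181a 3p strands in the 2VO group and 98.0 ± 0.635% in the treated group (SD, n = 3 each). The groups overlapped, with p = 0.4 in a two-sided exact permutation test over the 6 libraries. The 3p strands of Mir181b1 and Mir181b2 were in the same order, with at least 53 counts in each library for miR-181b-1-3p and 0 to 8 for miR-181b-2-3p. The 3p strands of the chromosome 13 pair outnumbered those of the chromosome 3 pair for both miR-181a and miR-181b in every library.

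The ratio of 5p to 3p counts is free of library scaling. With both 3p strands summed, miR-181a had 32.9, 32.7 and 30.6 5p counts per 3p count in the 2VO libraries, against 40.8, 39.9 and 34.02 in the treated libraries. Every treated library lay above every 2VO library. On the log2 scale the means were 5.00 ± 0.0589 and 5.25 ± 0.144 (SD, n = 3 each), a difference of 0.25, with p = 0.1 in a two-sided exact permutation test, the smallest it can give here. For miR-181b, whose ratio was added after the values had been seen, it was 180, 177 and 150 in the 2VO replicates and 200.1, 276 and 192 in the treated replicates. The groups again did not overlap, with log2 means of 7.39 ± 0.146 and 7.78 ± 0.287 (SD, n = 3 each), a difference of 0.38 and the same exact permutation p = 0.1. The ratios of miR-181a and miR-181b come from the same libraries and, for the most part, from neighbouring hairpins.

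The same ratio was formed for 163 hairpin names with at least 10 counts in total on each arm, as a comparison added after the values had been seen. Strands were paired by name, and 3p strands of different copies were summed. Hairpins whose 5p name alone carries a copy number, such as that of miR-24-2-5p, were left out. The groups did not overlap with the treated one higher in 5.52% of the hairpins (9, with miR-181a and miR-181b among them), and did not overlap in either direction in 8.59%. A fit over all hairpins with limma, with 0.5 counts added to each arm, gave a difference of 0.25 (95% interval -0.17 to 0.67) for miR-181a and 0.38 (95% interval -0.15 to 0.92) for miR-181b. Both had an adjusted p of 0.972 in limma. The fit drew the variance of each hairpin toward that of all hairpins, with no weighting by counts. The interval for miR-181a, with a standard error of 0.173, therefore does not measure its own spread alone. In this fit 0 hairpins had an adjusted p under 0.05 and 5 (3.07%) had an unadjusted p under 0.05, neither of the miR-181 hairpins among them. The median difference over all hairpins was 0.03. Without tilianin-treated replicate 2 the limma difference was 0.22 for both miR-181a and miR-181b.

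**Figure D4:**
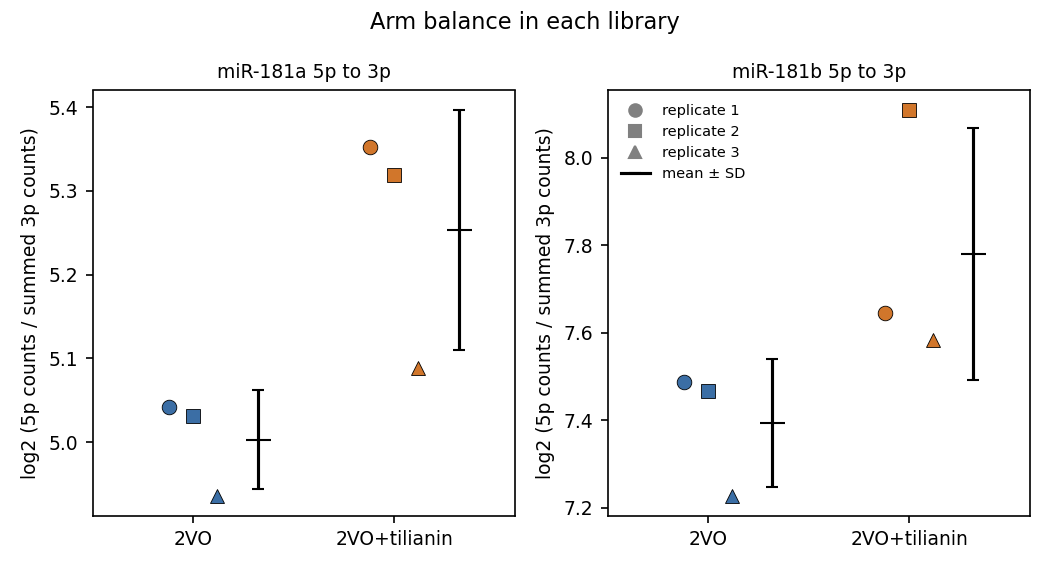
Log2 of the 5p count over the summed 3p counts for miR-181a (left) and miR-181b (right) in each library, by group, with the mean and SD of 3 libraries beside the points. The axes do not start at 0 and differ between the panels. Each treated library lies above each 2VO library, with means of 5.25 against 5.00 for miR-181a and 7.78 against 7.39 for miR-181b.

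miR-181c and miR-181d, the pair on chromosome 19, were at or near 0. miR-181c-5p and miR-181c-3p had 0 counts in all 6 libraries, and miR-181d-5p had 1 count in 2VO replicate 3, 1 in tilianin-treated replicate 1 and 0 elsewhere. A count of 0 allows up to 3 counts, which is 0.231 to 0.462 CPM after TMM scaling depending on the library and covers counting error only. Against that floor, per library, miR-181c-5p was at least 26096-fold lower than miR-181a-5p, from which it differs by 1 gap. In the 4 libraries where miR-181d-5p was at 0, it was at least 3965-fold lower than miR-181b-5p, from which it differs by C12U. In the libraries with 1 count the ratio of miR-181b-5p to it was 9136 (95% Clopper-Pearson interval 1639 to 360892) in 2VO replicate 3 and 16011 (2873 to 632440) in tilianin-treated replicate 1. No fold change between the groups was computed for these 3 members. On the same chromosome, Mir23a and Mir27a lie on the minus strand, with 28447 bases between Mir23a and Mir181c. Their guides miR-23a-3p and miR-27a-3p had 14199 to 23888 and 25956 to 35778 counts per library.

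Because miR-181c-5p and miR-181d-5p each have a listed near-copy, all listed pairs of mature strands that are 1 substitution or 1 gap apart were compared, a description chosen after the values were seen. There were 18 such pairs with at least 1000 counts on the higher strand over the 6 libraries. The lower strand held a median of 13.1% of the counts of its pair and at most 41.1%. It held less than 0.1% in 4 pairs. Those were miR-181c-5p with miR-181a-5p (0 of 637939 counts), miR-181d-5p with miR-181b-5p (0.00217%), miR-30e-5p with miR-30a-5p (0.00354%) and miR-1-3p with miR-1b (0.00407%). In the other 14 pairs, among them those of let-7, miR-23 and miR-27, both strands were counted at 0.318% or more. The names let-7a-1-3p and let-7c-2-3p had the same count as each other in every library (1770 to 3715), so some reads were counted under both names. How reads of near-copies that differ by a base were assigned was not tested. The sources used here do not name the counting program or say how reads that fit more than 1 miRNA were assigned. So a count near 0 for miR-181c and miR-181d need not mean that these strands were absent from the tissue. Reads of miR-181c-5p or miR-181d-5p counted as miR-181a-5p or miR-181b-5p cannot be told apart from reads of the latter. Counts near 0 were not confined to the listed pairs. miR-181c-3p, 2 substitutions from miR-181a-1-3p, and miR-181d-3p had 0 counts and are in none of them. Nor are miR-21-5p (1 to 8 counts per library), miR-451-5p (0 to 4) and miR-219a-5p (0 to 1).

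**Figure D5:**
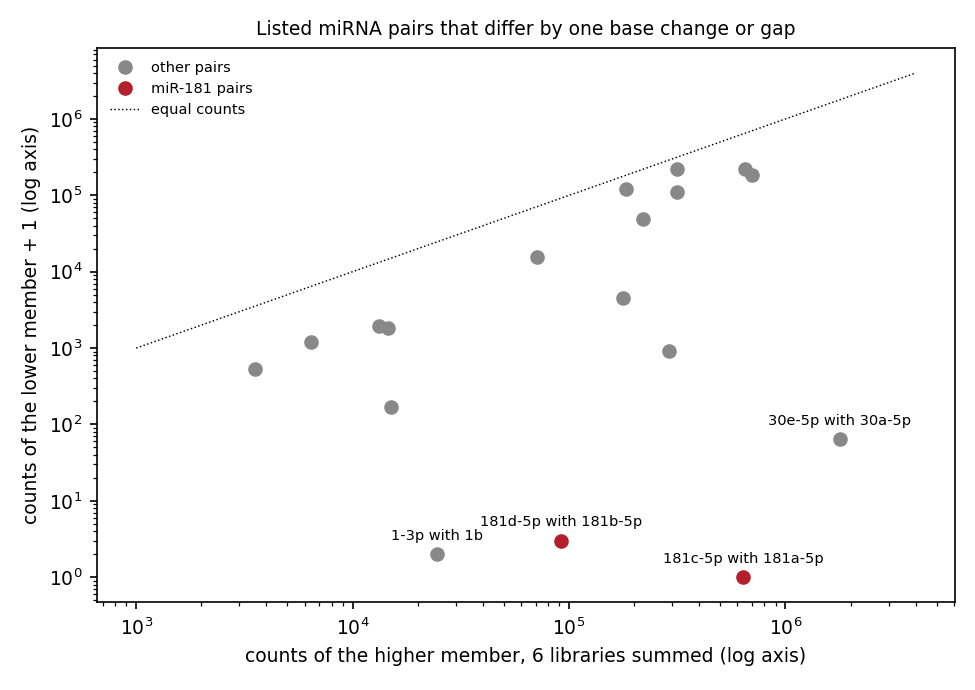
Counts of the lower strand, plus 1, against counts of the higher strand, summed over the 6 libraries on log axes, for the 18 listed pairs of miRNAs that differ by 1 substitution or 1 gap. Red points are the miR-181 pairs and the dotted line marks equal counts. Both red points lie at the bottom, with 0 counts for miR-181c-5p and 2 for miR-181d-5p.

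The miRNAs whose values moved most like the members over the 6 libraries were found as the smallest root mean square distance between log2(CPM + 1) values centred on their mean, among 268 others with at least 10 CPM. For miR-181a-5p these were miR-148b-5p (0.0852), miR-27b-3p (0.103) and let-7b-5p (0.109). For miR-181b-5p they were let-7d-3p (0.116), miR-92a-3p (0.155) and miR-26b-3p (0.164), and for miR-181a-1-3p they were miR-148b-3p (0.0680), miR-485-5p (0.116) and miR-324-5p (0.116). The members were not each other's nearest. miR-181a-5p came 15th for miR-181b-5p at a distance of 0.217, at which miR-181b-5p came 69th for miR-181a-5p. miR-181a-5p and miR-181a-1-3p each came 25th for the other at 0.159. The distance is small for any pair of steady miRNAs, and all points share the same libraries and scaling.

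As a setting for the family, 22 miRNAs studied in brain ischaemia were read from the same fit. Of these, 20 were tested, 1 was upregulated at the criterion and 0 were downregulated, against 4.63% and 1.10% of all tested miRNAs, and the median log2 fold change was 0.12. The upregulated one was miR-223-3p, a miRNA of myeloid cells, whose log2 fold change was 1.39, with a standard error of 0.507. Without tilianin-treated replicate 2 it was 0.65 (standard error 0.283), and 0 of the 18 then tested passed. The 3 with the highest levels were miR-124-3p, a neuronal miRNA, miR-125b-5p and let-7f-5p, with log2 fold changes of -0.01, -0.09 and -0.03. miR-210-3p, which is induced by hypoxia, had 0 counts in all 6 libraries. Other miRNAs of this list were also close to 0, with 0 to 2 counts per library for miR-15a-5p, 1 to 5 for miR-145-5p and 1 to 8 for miR-21-5p. The counting program is not named in the sources used here. A count at or near 0 therefore need not mean absence from the tissue.

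Markers of cell types were read beside the members, because miR-181a is also high in lymphocytes. Of the leukocyte and lymphoid list, 1 of 5 was upregulated (miR-223-3p), and the summed level was 774 to 1159 CPM in the 2VO libraries and 996 to 1400 CPM in the treated ones. Log2 fold changes in this list ran from 0.16 to 1.39, with a median of 0.95. Of the neuronal list, 0 of 5 passed, with 134310 to 167150 CPM in the 2VO libraries and 88977 to 163660 CPM in the treated ones, lowest in treated replicate 2. Log2 fold changes of the neuronal members ran from -0.33 to -0.01, with a median of -0.30. The endothelial list had 0 of 2 past the criterion, with 5372 to 8553 and 6510 to 7203 CPM. The oligodendrocyte list had 0 of 2, with 18.2 to 35.3 and 17.5 to 50.4 CPM and at most 1 count for miR-219a-5p. Beside the leukocyte list, 4 lists had upregulated members, against 4.63% of all tested miRNAs. The erythroid list had 1 of 2, miR-486, with 154.5 to 198 CPM in the 2VO libraries and 338.1 to 881 CPM in the treated ones, and at most 4 counts for miR-451-5p. The choroid plexus list had 3 of 4 (miR-204-5p, miR-204-3p and miR-211-5p), with 120 to 152 against 123 to 1078 CPM. The Hox cluster list had 2 of 3 (miR-10a-5p and miR-10b-5p), with 89.8 to 149 against 321 to 21658 CPM and miR-196b-5p at 0. The muscle list had 1 of 2, miR-133a-3p, with 77.3 to 116 against 107.3 to 415 CPM and at most 1 count for miR-1-3p. In all 5 of these lists the highest value was that of treated replicate 2. The other treated libraries summed to 338.1 to 406 CPM for the erythroid list, 123 to 349 CPM for choroid plexus, 321 to 489 CPM for the Hox cluster, 107.3 to 163 CPM for muscle and 996 to 1118 CPM for the leukocyte list. In the fit without treated replicate 2, an alternative added after the values were seen, miR-486, miR-211-5p, miR-10a-5p and miR-10b-5p passed the criterion, and no miRNA of the leukocyte and muscle lists did. Other erythroid and choroid plexus markers in that fit went both ways. The log2 fold change was -1.14 (standard error 1.09) for miR-144-3p and -0.43 (0.617) for miR-449a-5p. It was 0.83 (0.365) for miR-204-5p and 1.65 (0.827) for miR-204-3p, both short of the criterion. The part of other cell types in the levels of the miR-181 strands was not tested. In bulk tissue, fewer cells of a type and less of a miRNA per cell cannot be told apart.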

How the data were processed

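Small RNA was sequenced from 6 rat brain libraries (TruSeq Small RNA kit). The authors deposited counts of reads per mature miRNA for each library, without normalization. The submitters' processing notes name FastQC 0.11.2, Trimmomatic 0.36, cutadapt 1.14 and DESeq2 1.12.4. The aligner, miRNA reference, build and counting program are not given in the sources used here. Columns were matched to samples by library codes. Rows under 10 counts in total were dropped. Library sizes were scaled by TMM, and a quasi-likelihood test of edgeR 4.0.16 compared the groups, with no covariate and Benjamini-Hochberg adjustment over all tested miRNAs. Standard errors were derived from the F statistic. Shares and ratios within a library were compared with exact permutation tests (scipy 1.17.1), 4 in all besides the ratio of miR-181b. The tests on the shares of miR-181a-5p and miR-181b-5p are nearly the same test, since these shares are near complements. Other tools were R 4.3.3, DESeq2 1.42.0 and limma 3.58.1. The code was tested on simulated data. The alternatives were DESeq2's size factors, library totals, no filter, filterByExpr, DESeq2's Wald test, limma-voom, the replicate number as a block, other pseudocounts, and each library left out. Named miRNAs were the members, their hairpin partners, the nearest patterns, and members of the ischaemia and marker lists. The members and lists were chosen with earlier results of these data known.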

Additional observations from a re-analysis of the deposited data

How the results depend on the processing

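The log2 fold changes of miR-181a-5p, miR-181b-5p, miR-181a-1-3p and miR-181a-2-3p kept their direction and stayed short of the screening criterion in all 52 fits under 13 other settings, with an adjusted p no lower than 0.572 (edgeR, DESeq2 or limma). Their ranges over the fits that left out a library were 0.03 to 0.25, 0.04 to 0.51, -0.21 to -0.02 and 0.03 to 0.41. With the replicate number as a block, miR-181b-5p had a log2 fold change of 0.25 and an adjusted p of 0.735 in edgeR, and the block changed no call of a member. Deviations from the group mean correlated between same-numbered libraries at -0.121, 0.00917 and 0.297 for replicates 1 to 3, so replicate 3 showed some shared deviation. The library codes of replicate 3 carry different numbers in the 2VO and treated groups, and the replicate numbers were not taken as pairs. The difference in the share of miR-181a-5p among the guides, -1.03 percentage points, ranged from -2.06 to 0.156 with a library left out, and that of miR-181b-5p from -0.156 to 2.06. These shares are near complements, so they give a single result, which turned direction without tilianin-treated replicate 2. Differences of the summed 5p strands were 0.04 to 0.24 and of the summed 3p strands -0.19 to -0.05 in those fits.

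Over all miRNAs, the upregulated ones were 21, with 6 under limma-voom, 9 under the block, and from 7 to 29 when single libraries were left out (lowest without 2VO replicate 2, 9 without treated replicate 2, highest without treated replicate 1). The downregulated ones were 5, with 8 under library totals, 2 with filterByExpr, 3 under DESeq2's Wald test, 3 under limma-voom and 2 (without 2VO replicate 2) to 5 with a library left out. Those with an adjusted p under 0.05 were 0, with 3 under DESeq2's Wald test and 0 to 4 (without treated replicate 2) with a library left out, and no member was among them. For these shifts the cause was not tested. The 5p to 3p ratio of miR-181c, the shares of miR-181c-5p and miR-181d-5p, and the fold changes of miR-181c-5p, miR-181c-3p and miR-181d-5p were not computed, since they rest on 0 to 2 counts in total. The table limits any statement on these strands.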
